A study of Mus musculus with 16 samples.

Results

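Mitotic Sertoli cells of the newborn mouse testis were examined in single-cell RNA sequencing data from whole testes at postnatal day 2 (P2). A cell was counted as a Sertoli cell when it held at least 3 UMIs (unique molecular identifiers, each standing for 1 captured mRNA) of *Amh* and at least 2 of the 4 transcripts *Rhox8*, *Cst9*, *Cst12* and *Aard*. It was counted as mitotic when *Ube2c*, *Plk1* and *Ccnb1* together reached at least 5 UMIs. The quality limits (no fewer than 2000 genes, no more than 10% of UMIs from mitochondrial genes) left 11279 cells, of which 3890 were Sertoli cells and 1220 were mitotic Sertoli cells, with 673 in wild type versus 547 in the library labelled *Ddx5* knockout. The comparison cells were the 2205 Sertoli cells in which the same sum was at most 1 (1324 and 881), here called non-cycling as a name for low levels of these 3 mitotic transcripts. The name does not exclude cells in DNA replication. The name mitotic likewise stands for high levels of these transcripts, and cells that have not yet entered mitosis can be among them. The remaining 465 Sertoli cells had a sum between these limits.

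Sertoli cells are the somatic cells of the seminiferous cords that surround and nourish the germ cells. Around birth they still divide, and they leave the cell cycle before puberty, so that the number made early in life sets how many germ cells the adult testis can carry. Anti-Müllerian hormone, the product of *Amh*, is a hallmark of these immature cells. In a dividing cell, the cyclin B and CDK1 kinase drives entry into mitosis, PLK1 and the Aurora kinases organise the spindle, and the anaphase-promoting complex, which works with the ubiquitin-conjugating enzyme UBE2C and the activator CDC20, then marks cyclin B for destruction and lets the chromosomes part. Transcripts of this machinery build up late in the cell cycle, after those of DNA replication.

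The labels name wild-type and *Ddx5* conditional knockout mice, with 8 samples each whose titles give a library number and a sequencing lane. In the knockout, a floxed *Ddx5* allele (*Ddx5* flox/flox) was deleted by Cre recombinase under the *Mvh* promoter, which is active in germ cells and not in Sertoli cells. Knockout pups came from *Ddx5* +/- fathers and *Ddx5* flox/flox mothers, and the state of *Ddx5* in their Sertoli cells is not given in the sources used here, nor are the strain and the number of animals. Barcodes carry no sample number but only a suffix, 3 or 4, and the genotype was assigned to each suffix from the cell numbers after quality control, so each label counts as 1 library. The targeted gene goes against the label: in cells outside the Sertoli cells with at least 3 of 8 germ cell markers, *Ddx5* (an RNA helicase) was at 1214 CPM (UMIs per 1000000 UMIs of the group, 95% interval 1173 to 1256, 86 cells) in wild type and at 1736 CPM (1618 to 1860, 12 cells) in the library labelled *Ddx5* knockout, which is therefore named by its label. Other values ran the way of the label: *CRE* had 20 UMIs in those 12 cells and 0 in the 86, and over all cells kept, 127 in wild type against 12 in the other library held at least 3 germ cell markers. The paper reports *Ddx5* mRNA as decreased in knockout gonocytes by single-cell qRT-PCR on sorted *Oct4*-GFP-positive cells at P2. That is another measure on other cells. With 1 library per label no p-value can be given. All intervals are 95% intervals (exact Poisson for a level, exact conditional binomial for a ratio, exact Clopper-Pearson for a share, binomial order statistics for a median) and cover counting error only.

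The rule asked for 2 of 4 Sertoli markers, and most cells held more. All 4 of *Rhox8*, *Cst9*, *Cst12* and *Aard* were detected in 655 of 673 wild-type mitotic cells and in 527 of 547 of the library labelled *Ddx5* knockout. Free RNA and doublets can also carry *Amh* into a barcode: both Sertoli conditions were met by 3 of 38 macrophages (7.89%, 1.66 to 21.4) in wild type and by 1 of 46 (2.17%, 0.0550 to 11.5) in the other library. The limit on the mitotic sum was met by 3 of 38 macrophages (7.89%, 1.66 to 21.4) and 3 of 46 (6.52%, 1.37 to 17.9). Macrophages had a median of 16238 and 12060 UMIs. *Ube2c* was present in every mitotic Sertoli cell and gave 76.0% of the UMIs of the defining sum in wild type versus 74.8% in the other library. *Plk1* was found in 83.8% and 87.4% of these cells, *Ccnb1* in 89.6% and 90.1%, and all 3 together in 516 of 673 and 444 of 547. Libraries shared 12 barcode sequences, and 2 mitotic Sertoli cells carried 1 of these.

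Among the mitotic cells, 1 set stood apart before any comparison. In wild type, 27 of 673 mitotic Sertoli cells (4.01%, 2.66 to 5.78) also held at least 3 of the 8 germ cell markers *Dazl*, *Ddx4*, *Mael*, *Stk31*, *Tex101*, *Dppa4*, *Sall4* and *Rhox13*, against 5 of 1324 non-cycling cells (0.378%, 0.123 to 0.879). No such cell was found in the library labelled *Ddx5* knockout, 0 of 547 mitotic (upper bound 0.672%) and 0 of 881 non-cycling cells (upper bound 0.418%). The 27 cells had a median of 50958 UMIs, held 2704 of the 2750 germ cell marker UMIs of the 673 cells and all of their 64 *GFP* UMIs, and 25 of them had all 4 Sertoli markers. Scrublet, a doublet caller, marked 2 of the 27. The main counts are given with and without them.

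About 1 Sertoli cell in 3 was mitotic by this rule, which does not separate cells in mitosis from those before it. The share was 29.8% (27.9 to 31.8, 673 of 2256) in wild type and 33.5% (31.2 to 35.8, 547 of 1634) in the library labelled *Ddx5* knockout, which is 3.64 percentage points higher, and the intervals overlap. Without the cells with germ cell markers the wild-type share was 29.2%. When each cell was first thinned to 5000 UMIs, the shares were 18.9% and 21.2%. Among cells with no *Amh* UMI and at most 1 of the 4 Sertoli markers, 10.1% (9.13 to 11.1, 358 of 3545) and 9.98% (8.92 to 11.1, 293 of 2936) passed the same limit on *Ube2c*, *Plk1* and *Ccnb1*. Those mitotic cells had a median of 15720.5 and 15805 UMIs, below that of mitotic Sertoli cells. As the plot of cells by their sum shows, the mitotic cells had no single typical sum. The median was 27 UMIs in wild type (range 5 to 149) and 29 in the other library (5 to 135). The largest of the 4 ranges within the mitotic cells was 50 UMIs or more in both libraries, with 210 and 180 cells.

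**Figure D1:**
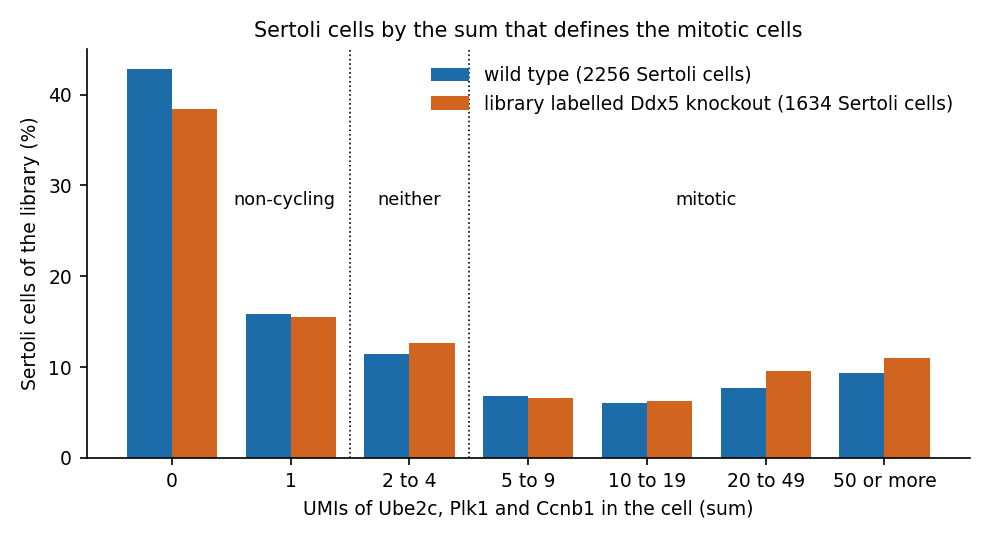
Share of the Sertoli cells of each library (%, vertical axis) by the sum of *Ube2c*, *Plk1* and *Ccnb1* UMIs in the cell (horizontal axis, in ranges). Dotted lines mark the limits of the rule, with non-cycling cells on the left (0 or 1), cells in neither group (2 to 4) and mitotic cells on the right (5 or more), and both libraries have a similar profile.

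At the lower limit itself the cells lay on a slope. The 49 wild-type Sertoli cells with a sum of 4 had 10853 CPM of the 89 mitotic genes that the rule did not use, and the 38 cells with a sum of 5 had 13871 CPM. In the library labelled *Ddx5* knockout the values were 12289 CPM (51 cells) and 14617 CPM (28 cells). Cells with a sum of 0 had 4507 and 4297 CPM. The cells just outside the rule were thus closer to those just inside it than to the cells at 0.

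Mitotic Sertoli cells carried more RNA than non-cycling cells. Their median was 19148 UMIs (18779 to 19698) in wild type and 21332 (20848 to 21793) in the library labelled *Ddx5* knockout, against 12285 (12083 to 12496) and 13967 (13719 to 14208) in non-cycling cells, a ratio of 1.56 and 1.53. A rule on whole UMIs favours deep cells, so part of this difference is built in. Median genes per cell were 5061 and 5298 against 3936 and 4199. At an equal depth of 5000 UMIs the difference shrank to 2372 against 2290 genes in wild type and 2351 against 2273 in the other library, with 2 and 17 cells too shallow in wild type and 0 and 4 in the other. Scrublet marked 79 of 673 mitotic cells (11.7%) and 101 of 1324 non-cycling cells (7.63%) in wild type, and 96 of 547 (17.6%) and 93 of 881 (10.6%) in the other library. The part of doublets in the depth of the mitotic cells was not tested, but with these barcodes left out the medians were 18672.5 and 20420 UMIs.

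For each gene, UMIs were summed over the cells of a group and expressed as CPM, and the log2 ratio was taken of CPM + 10 in mitotic over CPM + 10 in non-cycling cells. Genes with at least 20 UMIs over both groups were compared. In wild type 226 of 14860 genes (1.52%) were at least 2-fold higher and 6 (0.0404%) at least 2-fold lower in mitotic cells. Without the cells with germ cell markers 213 genes were higher and 7 lower. In the library labelled *Ddx5* knockout 223 of 14010 (1.59%) were higher and 14 (0.0999%) lower. Both libraries had 199 higher and 2 lower genes in common among 13854 genes tested in each. Since the mitotic cells were chosen from these same transcripts, these contrasts describe the cells and were not tested. The median log2 ratio of all genes was 0.02 and 0.00.

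Most of the machinery of chromosome segregation was higher with the 3 genes that chose the cells. Of 89 mitotic genes outside the rule, 77 in wild type versus 78 in the library labelled *Ddx5* knockout were at least 2-fold higher and 0 were lower in either, with a median log2 ratio of 2.41 and 2.61. Without the cells with germ cell markers the count was again 77 in wild type and the median 2.45. The genes of the rule itself came to 1580 CPM in mitotic and 19.9 CPM in non-cycling wild-type cells, and to 1718 and 19.05 CPM in the other library.

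**Figure D2:**
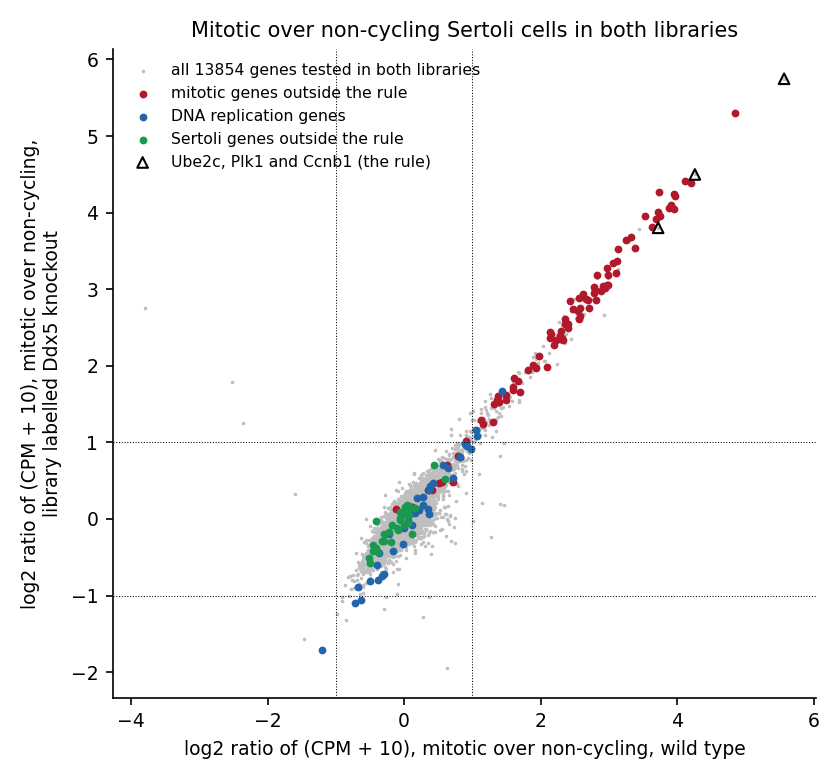
Log2 ratio of (CPM + 10) in mitotic over non-cycling Sertoli cells for each gene in wild type (horizontal axis) and in the library labelled *Ddx5* knockout (vertical axis), with dotted lines at 2-fold. Mitotic genes (red) run up the diagonal beside the 3 genes of the rule (triangles), while DNA replication genes (blue) spread on both sides of 0, from -1.72 to 1.68, Sertoli genes outside the rule (green) lie within the 2-fold lines, and a few grey points with opposite signs are the haemoglobin genes described at the end.

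The list of mitotic kinases and cyclins, with their inhibitors and transcription factors, was higher in 11 of 15 genes in wild type and in 12 of 15 in the library labelled *Ddx5* knockout. *Cdk1*, the mitotic kinase, was at 525 CPM in mitotic and 79.6 CPM in non-cycling wild-type cells (6.597-fold, 6.23 to 6.99), and at 616 and 82.9 CPM in the other library (7.43-fold, 6.98 to 7.93). *Ccnb2*, the second B-type cyclin, was at 220 against 13.0 CPM and at 223 against 8.13 CPM. *Ccna2*, cyclin A, was at 268 against 12.3 CPM and at 277 against 10.4 CPM. In all of these the mitotic value was many times the non-cycling value in both libraries. *Cdc25c*, the phosphatase that releases CDK1 from inhibition, was at 74.3 against 2.12 CPM and 82.6 against 1.66 CPM. The kinases that hold CDK1 back stayed below 2-fold, with *Wee1* at a log2 ratio of 0.81 in both libraries and *Pkmyt1* at 0.51 and 0.46. *Foxm1*, a transcription factor of late cell cycle genes, was at 48.1 against 2.74 CPM and 51.2 against 2.71 CPM. *Mybl2*, which encodes the transcription factor B-Myb of the same genes, had a log2 ratio of 0.72 and 0.49.

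In the checkpoint and anaphase-promoting complex group, 10 of 14 genes were at least 2-fold higher in both libraries. *Cdc20*, the activator named above, was at 267 against 11.1 CPM in wild type (24.0-fold, 20.8 to 27.9) and at 299 against 9.26 CPM in the library labelled *Ddx5* knockout (32.3-fold, 27.0 to 39.0). *Bub1b*, which holds CDC20 in check until chromosomes are attached, was at 151 against 11.7 CPM and 148 against 10.2 CPM. *Espl1*, the protease that cuts cohesin, was at 30.9 against 1.62 CPM and 33.9 against 1.36 CPM. The members that stayed below 2-fold were constant subunits of the complex and the separase inhibitor: *Cdc16* had a log2 ratio of 0.12 and 0.15, *Anapc11* 0.18 and 0.13, *Cdc27* 0.55 and 0.48, and *Pttg1*, securin, -0.12 and 0.13.

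All 16 genes of the chromosomal passenger complex and kinetochore were higher in both libraries. Together they came to 3885 CPM in mitotic and 223 CPM in non-cycling wild-type cells (17.4-fold) and to 4181 and 180 CPM in the other library (23.3-fold, 22.3 to 24.3). Without the cells with germ cell markers the wild-type sums were 4049 and 222 CPM. *Cenpf*, a kinetochore protein of late cell cycle, had the highest log2 ratio of the group, 4.85 and 5.31, from 739 against 16.0 CPM and 788 against 10.2 CPM. *Aurkb*, the kinase of the passenger complex, was at 132 against 6.09 CPM and 163 against 5.12 CPM, and its partner *Birc5*, survivin, at 488 against 22.2 CPM and 518 CPM against 18 CPM. *Ska3*, of the complex that ties kinetochores to microtubules, had the lowest log2 ratio in the group, 1.62 and 1.85.

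Of 28 spindle and cytokinesis genes 27 were higher in both libraries. *Nusap1* (44.2-fold and 55.8-fold), which bundles spindle microtubules, and *Hmmr* (52.7-fold and 71.6-fold), which works at spindle poles, were among the highest. The mitotic kinesin *Kif11* was at 263 against 8.15 CPM and 283 CPM against 7 CPM. *Prc1*, the crosslinker of the central spindle, was at 556 against 26.7 CPM and 639 against 29.2 CPM. The exception was *Numa1*, an interphase nuclear protein that moves to the spindle poles, at 96.3 against 73.2 CPM and 98.8 against 73.9 CPM.

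Chromatin condensation and nuclear envelope genes were higher in 13 of 16 in each library. *Top2a*, which untangles DNA, stood at 1008 against 65.8 CPM and 1066 against 59.6 CPM, and *Mki67*, which coats mitotic chromosomes and encodes the proliferation marker Ki-67, at 511 CPM against 20 CPM and 527 against 15.3 CPM. The condensin I subunits *Ncapg*, *Ncaph* and *Ncapd2* had log2 ratios of 2.57, 2.10 and 2.22 in wild type, against 2.89, 1.98 and 2.34 in the other library. Of condensin II, *Ncapg2* was at 1.30 and 1.27, while *Ncapd3* (0.79 and 0.82) and *Ncaph2* (0.62 and 0.71) did not reach 2-fold. *Lmnb1*, a lamin of the nuclear envelope, was 2.68-fold and 3.05-fold higher.

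**Figure D3:**
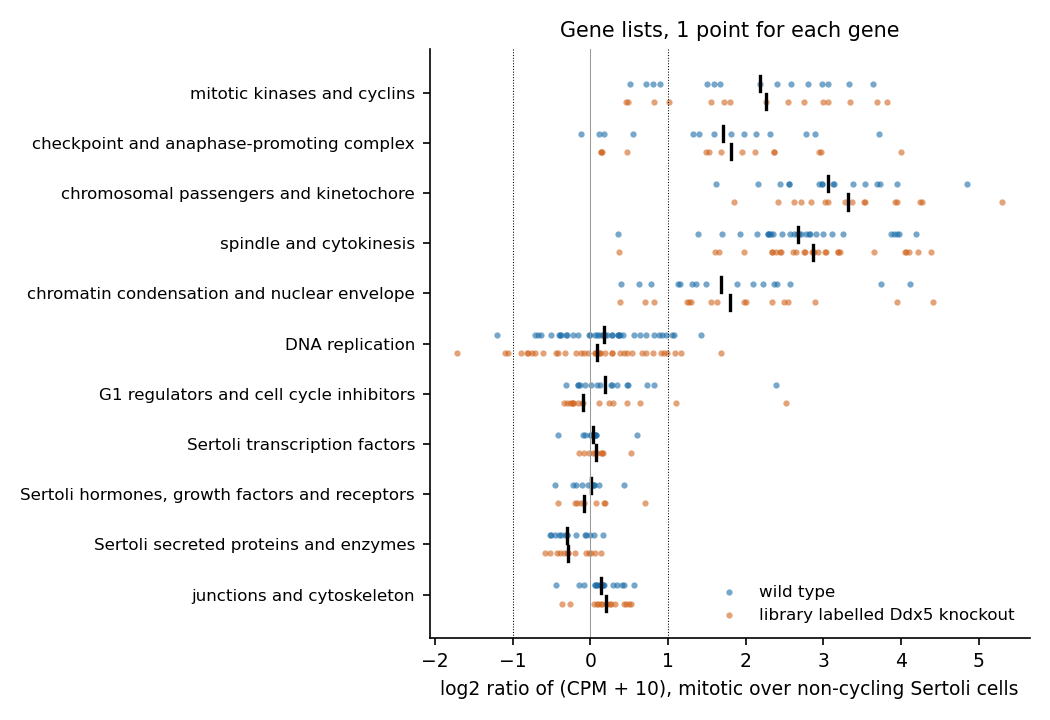
Log2 ratio of (CPM + 10) in mitotic over non-cycling Sertoli cells (horizontal axis) for the genes of 11 lists (vertical axis), with 1 point for each gene past the filter of 20 UMIs, blue for wild type and orange for the library labelled *Ddx5* knockout, a black bar at each median and dotted lines at 2-fold. The 5 mitotic lists have medians between 1.69 and 3.32, the other lists between -0.30 and 0.21.

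Genes of the late cell cycle are known to share promoter elements: the cell cycle genes homology region (CHR), read as TTTGAA, and CCAAT boxes bound by NF-Y, while replication genes often carry an E2F site, here TTTGGCGC. Reference promoters (RefSeq, GRCm38.p6, from 250 bases before to 50 bases after a start site) were found for 16903 genes of the table. TTTGAA on either strand lay in the promoter of 46 of 73 mitotic genes outside the rule (63.0%) and of 2847 of all 16903 genes (16.8%). It lay in 6 of 32 DNA replication genes (18.8%) and in 2 of 22 Sertoli genes outside the rule (9.09%). At least 2 CCAAT boxes on either strand were present in 31 of 73 mitotic genes (42.5%), 14 of 32 replication genes (43.8%), 4 of 22 Sertoli genes (18.2%) and 14.8% of all. Both features together were held by 25 of 73 mitotic genes (34.2%), 3 of 32 replication genes (9.38%), 0 of 22 Sertoli genes and 2.31% of all. TTTGGCGC was in 3 of 73 mitotic genes (4.11%), 7 of 32 replication genes (21.9%) and 0.840% of all. Genes with several promoters counted when any held the match. Overlapping matches were each counted, also those of CCAAT with its own reverse complement, so 1 stretch can count as 2 CCAAT boxes. A match is a run of letters in this window and not a measured site.

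The 150 bases before the start site are shown for the 3 genes of the rule, for *Cdc20*, *Cdk1* and *Ccnb2* as mitotic genes outside it, and for *Mcm6* as a replication gene whose level ran the other way. They are read 5′ to 3′ on the strand of the gene, and capitals mark the CHR, the CCAAT box and the E2F site or their reverse complements. Their positions are chr2:164769779-164769928 on the plus strand for *Ube2c*, chr7:122159285-122159434 (plus) for *Plk1*, chr13:100786487-100786636 (minus) for *Ccnb1*, chr4:118437344-118437493 (minus) for *Cdc20*, chr10:69352913-69353062 (minus) for *Cdk1*, chr9:70421555-70421704 (minus) for *Ccnb2* and chr1:128359706-128359855 (minus) for *Mcm6*.
Ube2c: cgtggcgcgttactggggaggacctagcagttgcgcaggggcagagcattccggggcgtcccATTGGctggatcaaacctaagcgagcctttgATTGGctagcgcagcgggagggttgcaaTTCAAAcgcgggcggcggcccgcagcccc
Plk1: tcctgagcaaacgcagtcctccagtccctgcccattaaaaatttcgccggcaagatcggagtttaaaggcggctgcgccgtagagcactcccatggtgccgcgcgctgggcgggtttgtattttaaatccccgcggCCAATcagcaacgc
Ccnb1: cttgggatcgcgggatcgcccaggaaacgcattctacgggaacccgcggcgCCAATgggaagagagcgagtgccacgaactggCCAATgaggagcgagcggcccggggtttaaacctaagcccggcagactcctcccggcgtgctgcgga
Cdc20: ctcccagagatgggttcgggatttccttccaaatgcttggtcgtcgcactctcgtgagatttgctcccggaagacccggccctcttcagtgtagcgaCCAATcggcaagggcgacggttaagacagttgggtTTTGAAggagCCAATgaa
Cdk1: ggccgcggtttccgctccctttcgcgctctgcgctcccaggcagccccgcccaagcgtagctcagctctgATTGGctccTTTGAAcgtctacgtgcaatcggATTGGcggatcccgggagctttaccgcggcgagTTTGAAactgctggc
Ccnb2: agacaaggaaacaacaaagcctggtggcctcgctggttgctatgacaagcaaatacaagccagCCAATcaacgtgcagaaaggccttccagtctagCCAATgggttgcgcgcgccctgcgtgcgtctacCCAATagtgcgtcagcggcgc
Mcm6: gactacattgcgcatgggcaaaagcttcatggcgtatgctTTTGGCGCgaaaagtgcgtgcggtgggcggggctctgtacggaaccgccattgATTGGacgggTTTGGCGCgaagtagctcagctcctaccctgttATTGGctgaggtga
In these windows *Ube2c*, *Cdc20* and *Cdk1* held TTTGAA next to CCAAT boxes, *Ccnb1* held 2 CCAAT boxes and *Ccnb2* 3, both with no TTTGAA (*Ccnb2* had matches on either side of the window), and *Plk1* held 1 CCAAT box, with its TTTGAA match beginning 30 bases after the start site, outside the window. *Mcm6* held 2 matches to TTTGGCGC and 2 CCAAT boxes.

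DNA replication genes did not follow the mitotic genes as a group, and their counts depended on how the cells were chosen. The comparison cells may themselves hold replicating cells: within them the list was at 2357 CPM at a sum of 0 and at 3333 CPM at a sum of 1 in wild type, and at 2470 and 3361 CPM in the other library. Of 38 genes, 3 were at least 2-fold higher and 1 lower in wild type, against 1.52% higher and 0.0404% lower of all genes. In the library labelled *Ddx5* knockout 3 were higher and 3 lower, against 1.59% and 0.0999% of all genes. The 2 libraries had medians of 0.18 and 0.09 (0.15 in wild type without the cells with germ cell markers). With each cell thinned to 5000 UMIs before the rule, 0 were higher and 6 lower in wild type, and 0 higher and 10 lower in the other library. With cells chosen on all UMIs and then thinned, 4 were higher in each library. Of the 6 subunits of the helicase that is loaded at origins in G1, 0 in wild type versus 2 in the other library, *Mcm2* and *Mcm6*, were at least 2-fold lower. Together these subunits, *Mcm2* to *Mcm7*, came to 473 CPM in mitotic and 686 CPM in non-cycling wild-type cells (0.690-fold, 0.670 to 0.710) and to 398 and 738 CPM in the other library (0.539-fold, 0.520 to 0.558). *Mcm6* was at 115 against 195 CPM and 92.2 against 208 CPM. *Cdt1*, which loads the helicase, had a log2 ratio of -0.39 and -0.80, and *E2f1*, which turns on genes of the G1/S transition, -0.50 and -0.81. *Ung*, the uracil-DNA glycosylase, was the lowest of the list, at 49.4 against 127 CPM in wild type (0.389-fold, 0.357 to 0.422) and at 38.6 against 150 CPM in the other library (0.258-fold, 0.233 to 0.285).

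Other genes of the same list had ratios above 1, and those past 2-fold were not so with thinning before the rule. *Pclaf*, a partner of PCNA, was at 250 against 86.5 CPM and 288 against 83.3 CPM, *Tk1*, thymidine kinase, at 98.5 against 42.4 CPM and 115 against 45.6 CPM, and *E2f7*, a repressor of E2F targets, at 22.2 against 5.31 CPM and 23.3 against 5.65 CPM. *Gmnn*, geminin, which blocks CDT1 after S phase, was 1.52-fold and 1.69-fold higher. *Pcna*, the sliding clamp, was close to equal at 154 against 147 CPM and 141 against 143 CPM. Without the cells with germ cell markers, *Mcm2* to *Mcm7* stood at 439 against 688 CPM in wild type, *Ung* had a log2 ratio of -1.55, *Cdt1* of -0.61, and 4 genes of the list were at least 2-fold higher.

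The order of these genes across the defining sum is seen in the plot by range. The passenger and kinetochore genes were at 160 CPM in wild-type cells with a sum of 0, at 2243 CPM at 5 to 9 UMIs and at 4808 CPM at 50 or more. The DNA replication list was at 2357 CPM at 0, highest at 5 to 9 UMIs (4369 CPM) and at 2003 CPM at 50 or more. In the library labelled *Ddx5* knockout it went from 2470 CPM at 0 to 4656 CPM at 2 to 4 UMIs and 1688 CPM at 50 or more. Within the mitotic cells, therefore, replication transcripts were at their lowest where the defining sum was at its highest, in both libraries. *Top2a* reached its highest level at 20 to 49 UMIs (1196 and 1308 CPM). The ranges are bound to depth, with medians of 16218 UMIs at 5 to 9 and 21822.5 at 50 or more in wild type, and its part in these levels was not tested.

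**Figure D4:**
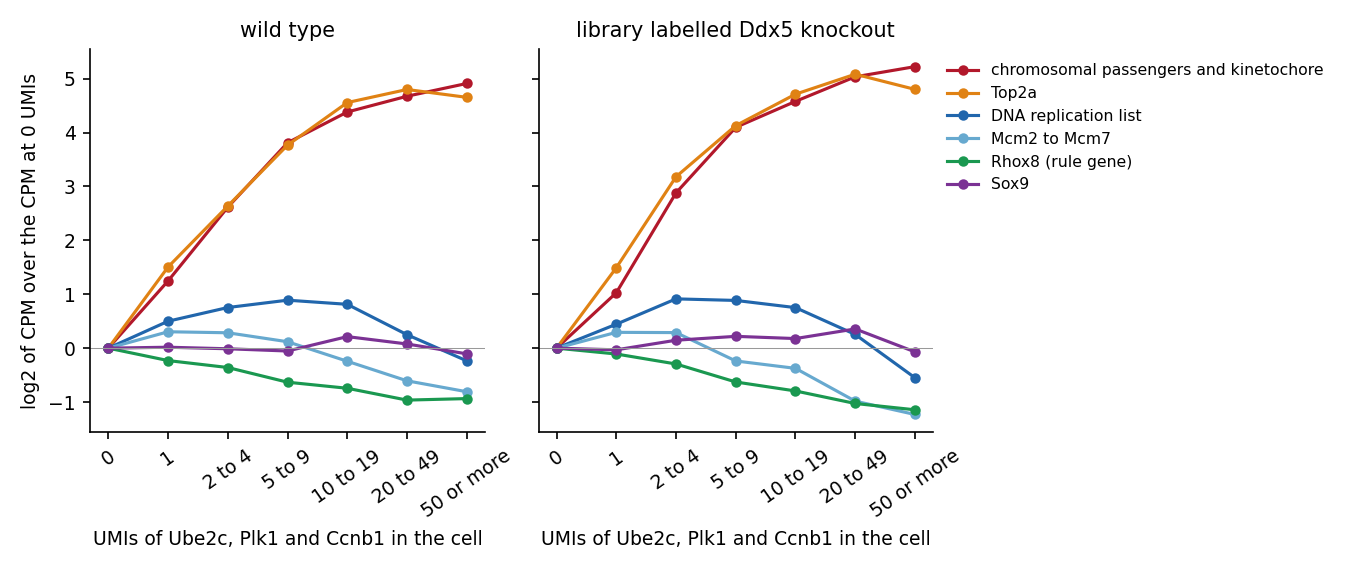
Log2 of the CPM in Sertoli cells of each range of the sum of *Ube2c*, *Plk1* and *Ccnb1* UMIs (horizontal axis) over the CPM in cells at 0 UMIs (vertical axis), for wild type (left) and the library labelled *Ddx5* knockout (right). Passenger and kinetochore genes and *Top2a* climb to about 5, the replication list is raised in the middle ranges and below 0 at 50 or more, *Mcm2* to *Mcm7* and *Rhox8* go below 0, and *Sox9* stays near 0.

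Among 16 G1 regulators and cell cycle inhibitors, 1 gene in wild type versus 2 in the library labelled *Ddx5* knockout were at least 2-fold higher and 0 lower. Of all genes, 1.52% and 1.59% were higher and 0.0404% and 0.0999% lower. *Cdkn2c*, which encodes the CDK4 and CDK6 inhibitor p18, was at 95.4 against 10.2 CPM in wild type (9.39-fold, 8.04 to 11.0) and at 95.4 against 8.36 CPM in the other library (11.4-fold). *Cdkn2d*, which encodes the related inhibitor p19, had a log2 ratio of 0.82 and 1.10. *Cdkn1b*, the gene of p27, an inhibitor known to accumulate when Sertoli cells mature, was at 47.3 against 30.8 CPM and 51.4 against 29.5 CPM. *Ccnd2*, a D-type cyclin of G1, was lower at 760 against 948 CPM and 935 against 1098 CPM.

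Sertoli genes are described by their values. Of 35 Sertoli genes outside the rule, 34 in wild type versus 33 in the library labelled *Ddx5* knockout passed the filter of 20 UMIs, and 0 were 2-fold higher or lower in either, which is near the share of all genes (1.52% and 1.59% higher, 0.0404% and 0.0999% lower) and says nothing particular to them. Their median log2 ratio was -0.06 and -0.05. *Sox9*, the transcription factor that sets the Sertoli fate, was at 263 against 261 CPM in wild type (1.01-fold, 0.964 to 1.05) and 287 against 258 CPM in the other library (1.11-fold, 1.06 to 1.17). *Wt1*, needed to maintain Sertoli identity, was at 261 against 248 CPM and 278 against 246 CPM, and *Gata4*, a partner in *Amh* transcription, at 196 against 187 CPM and 220 against 200 CPM. The mitotic and non-cycling values of these factors lay within 1.13-fold of each other. *Etv5*, a factor of the niche for spermatogonia, had the highest ratio of the 10 factors, at 17.9 against 8.43 CPM and 17.3 against 9.03 CPM, with a log2 ratio of 0.60 in wild type that was 0.41 without the cells with germ cell markers.

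Hormones, growth factors and secreted proteins divided. *Inha*, the alpha subunit of inhibin, was at 1622 against 2231 CPM (0.727-fold, 0.715 to 0.739) and 1553 against 2079 CPM (0.747-fold, 0.733 to 0.761). *Gdnf*, the growth factor that Sertoli cells give to spermatogonia, ran the other way, at 47.3 against 32.4 CPM (1.46-fold, 1.31 to 1.63) and 51.8 against 27.9 CPM (1.86-fold, 1.63 to 2.12). *Kitl*, the KIT ligand, was close to equal, at 246 against 238 CPM and 243 against 214 CPM. Among 15 genes of secreted proteins and enzymes, of which 14 passed the filter, the median was -0.30 and -0.29. *Clu*, clusterin, was at 1842 against 2443 CPM and 1644 against 2151 CPM, *Lgals7*, a galectin, at 869 against 1245 CPM and 906 against 1298 CPM, and *Hsd17b1*, a steroid dehydrogenase, at 308 against 425 CPM and 340 against 434 CPM.

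The Sertoli genes of the rule were lower in mitotic cells on the CPM scale. *Rhox8*, a homeobox gene, was at 678 against 1168 CPM in wild type and 472 against 895 CPM in the library labelled *Ddx5* knockout, *Aard* at 1296 against 1979 CPM and 1171 against 1941 CPM, and *Amh* at 964 against 1168 CPM and 939 against 1147 CPM. Counted per cell, the picture differed, since mitotic cells were deeper: *Amh* had 21.3 UMIs per mitotic and 15.8 per non-cycling wild-type cell and 20.7 and 17.3 in the other library, and *Sox9* 5.81 and 3.53, and 6.33 and 3.88. *Rhox8* was lower on this scale too, at 15 against 15.8 and 10.4 against 13.5 UMIs per cell. A lower CPM of 1 transcript cannot be told apart here from more of all the others.

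Junction and cytoskeleton genes had medians of 0.14 and 0.21, with 0 past 2-fold among the 17 and 16 tested, again near the share of all genes. *Actg1*, gamma-actin, was 1.27-fold and 1.42-fold higher, and *Cldn11*, a claudin of the later blood-testis barrier, 1.65-fold and 1.69-fold. Immediate early and heat shock genes, which respond to dissociation, had medians of 0.10 and 0.03, with 0 of 12 past 2-fold, also near that share. Ribosomal protein transcripts came to 16.9% of UMIs in mitotic and 19.9% in non-cycling wild-type cells, and 17.4% and 20.7% in the other library. Mitochondrial transcripts took 2.97% and 2.86%, and 2.66% and 2.72%.

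Genes outside the lists were named by their rank in both libraries. Among the highest were *Cdca3*, a trigger of mitotic entry, *Aspm* and *Knstrn* of the spindle, *Tubb4b*, a beta-tubulin, *Cdca2*, a phosphatase subunit on chromatin, *Pbk*, a mitotic kinase, *Esco2*, an acetyltransferase of cohesin, *Shcbp1*, which acts in cytokinesis, the phosphatase *Cdkn3* and the histone genes *Hist1h2ap* and *H2ac8*, whose reads may be shared with near-identical copies. *Aspm* was at 139 against 5.14 CPM in wild type (27.1-fold, 22.0 to 33.7) and at 140 against 2.11 CPM in the library labelled *Ddx5* knockout (66.3-fold, 45.7 to 100.1). *Cdca3* was at 217 against 10.9 CPM and 231 against 7.45 CPM. *Tubb4b* was at 913 against 107 CPM and 977 against 102 CPM. Genes outside the lists were 60.2% and 61.4% of those at least 2-fold higher.

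Few genes were at least 2-fold lower. Of the 12 lowest-ranked genes outside the lists, *Ccl17*, a chemokine, was past 2-fold in both libraries, at 37.5 against 121 CPM in wild type (0.310-fold, 0.282 to 0.340) and 53.2 against 177 CPM in the library labelled *Ddx5* knockout (0.301-fold, 0.275 to 0.328). *Aldoa*, a glycolytic aldolase, was at 409 against 776 CPM and 341 against 726 CPM, and *Fgf18*, a fibroblast growth factor, at 12.6 against 29.6 CPM and 12.6 against 35.5 CPM. *Aldoa*, *Fgf18*, *Tmem150a* and *Prcd* were past 2-fold in the library labelled *Ddx5* knockout but not in wild type. *Tmem150a* was at the edge in wild type, with a log2 ratio of -0.99, and -1.02 without the cells with germ cell markers. *Secisbp2*, *Mmp23*, *Tspan4*, *Nt5c*, *Serpina5*, *Arhgdig* and *Unc119* did not reach 2-fold in either, with log2 ratios between -0.90 and -0.74.

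To see what was shared with other dividing cells, the same comparison was made in cells without Sertoli markers (358 and 293 mitotic, 2995 and 2514 non-cycling), which are a mixture of cell types. The 89 mitotic genes had median log2 ratios of 2.98 and 3.16 there, against 2.41 and 2.61 in Sertoli cells. In those cells the passenger and kinetochore genes were at 5138 CPM against 3885 CPM in mitotic Sertoli cells of wild type, and at 5660 against 4181 CPM in the other library. *Cdkn2c* was lower in mitotic Sertoli cells, at 95.4 against 278 CPM and 95.4 against 269 CPM. The replication list had medians of 0.89 and 0.77 in the other mitotic cells, where Sertoli cells had 0.18 and 0.09. These differences in size were not tested, and the non-cycling cells they are measured against differ.

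Between the libraries, the number of genes past 2-fold in mitotic Sertoli cells depended on the CPM added before the ratio. Of 14469 genes tested, 3 (0.0207%) were at least 2-fold higher and 31 (0.214%) at least 2-fold lower in the library labelled *Ddx5* knockout, and with the cells with germ cell markers left out 3 of 13965 (0.0215%) were higher and 4 (0.0286%) lower. With 1 CPM added in place of 10, 41 were higher and 360 lower, and with 50 CPM 2 were higher and 1 lower. The germ cell markers *Dazl*, *Ddx4*, *Stk31*, *Mael*, *Tex101* and *Sall4* were among the 31 lower genes with 10 CPM added. *Dazl* had 1158 UMIs in wild-type mitotic cells and 1 in the other library. Its log2 ratio of mitotic over non-cycling cells in wild type was 2.40, and -0.02 without the 27 cells. The 4 lower genes without these cells were *Gm43305*, a gene model, *Wdfy1*, an adaptor protein, *Ptprv*, a phosphatase, and *Fosb*, an immediate early gene. Of them *Gm43305* and *Wdfy1* were also past 2-fold with all cells, where *Ptprv* and *Fosb* had log2 ratios of -0.99 and -0.97. The list of 12 immediate early and heat shock genes had a median log2 ratio between the libraries of -0.28 in mitotic and -0.38 in non-cycling cells. In mitotic cells *Fos* was 0.536-fold (0.480 to 0.598), *Junb* 0.603-fold (0.548 to 0.663), *Egr1* 0.807-fold (0.777 to 0.837) and *Hspa1b* 1.08-fold (0.817 to 1.43). *Gm43305* was at 42.0 CPM in wild type and 5.39 CPM in the other library (0.128-fold, 0.0977 to 0.166), and in non-cycling cells at 28.3 and 4.89 CPM. *Wdfy1* was at 28.1 and 8.79 CPM in mitotic and 29.0 and 8.81 CPM in non-cycling cells. In non-cycling cells *Ptprv* was 0.273-fold (0.218 to 0.340) and *Fosb* 0.309-fold (0.238 to 0.397). All 4 were thus lower in mitotic and in non-cycling cells.

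The 3 higher genes were *Hbb-bs*, *Hba-a1* and *Hba-a2*, which encode haemoglobin chains of red blood cells. *Hbb-bs* had 41 UMIs in wild-type mitotic cells against 1977 in those of the other library, 1916 of the latter in 5 cells and 1395 in 1 cell. In non-cycling cells it had 3001 UMIs in wild type, 2936 of them in 5 cells, and 210 in the other library. Its direction between the libraries was therefore opposite in the 2 cell groups, and 5 barcodes held 96.9% and 97.8% of the UMIs of the higher group in mitotic and non-cycling cells.

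Of mitotic genes outside the rule, *Mki67* was 1.03-fold (0.996 to 1.07) that of wild type in the library labelled *Ddx5* knockout, and 0.979-fold without the cells with germ cell markers. *Aurka*, an Aurora kinase, was 1.38-fold (1.29 to 1.48) higher, and 1.31-fold without them. The 89 mitotic genes had a median log2 ratio of 0.09, and 0.04 without these cells. *Rhox8* was lower in the library labelled *Ddx5* knockout, 0.696-fold (0.673 to 0.719) in mitotic and 0.766-fold in non-cycling cells. *Ddx5* was at 946 and 903 CPM in mitotic cells and at 928 and 864 CPM in non-cycling cells. Stromal markers went with the library and not with division: the 10 genes came to 826 CPM in wild type and 1334 CPM in the library labelled *Ddx5* knockout in mitotic cells, and to 857 and 1387 CPM in non-cycling cells. *Dcn*, decorin of connective tissue, was at 172 and 317 CPM in mitotic cells. *Pnmt*, which makes adrenaline from noradrenaline, was at 217 and 410 CPM in mitotic and 218 and 404 CPM in non-cycling cells. *Ctsh*, a cathepsin, was at 52.6 and 108 CPM in mitotic and 76.5 and 148 CPM in non-cycling cells. All 10 stromal markers were detected, and their part in the differences was not tested. The 6 endothelial markers came to 30.0 and 29.8 CPM in mitotic cells, and the 7 peritubular myoid markers to 171 and 157 CPM.

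**Figure D5:**
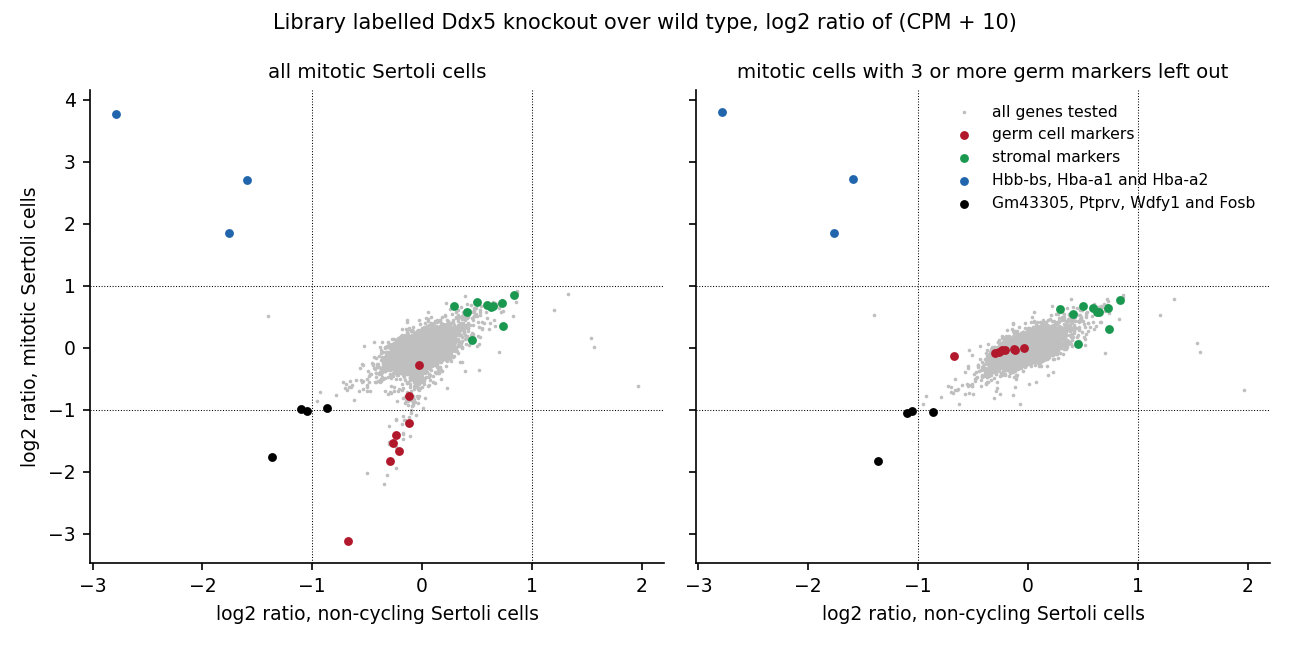
Log2 of (CPM + 10) in the library labelled *Ddx5* knockout divided by that in wild type, in non-cycling (horizontal axis) and mitotic Sertoli cells (vertical axis), 1 point for each gene, with dotted lines at 2-fold, for all mitotic cells (left) and without mitotic cells with at least 3 germ cell markers (right). Of the 8 germ cell markers (red), 6 move from below -1 on the left to near 0 on the right, haemoglobin genes (blue) have opposite signs in the 2 cell groups, and stromal markers (green) are above 0 in both.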

How the data were processed

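The authors counted UMIs with Cell Ranger 3.1.0 on a mouse reference (GRCm38, per the submitters' processing notes, which also name Seurat 3.1.5) with *GFP* and *CRE* added, and deposited 1 table of UMI counts for 30451 genes and 12186 barcodes, before their limits on genes and mitochondrial UMIs. It was used as deposited. Cells, UMI sums, CPM, log2 ratios with 10 CPM added, the filter of 20 UMIs and intervals are as given in the text. The samples of a label cannot be told apart, so no test was run. Members, lists and rules were chosen with earlier results of these data known. Named genes outside the lists were the 12 highest and 12 lowest in both libraries, and the 8 highest and 8 lowest between libraries, with limits on UMIs and share of cells. Of these, 1 is not reported here. The step without cells with germ cell markers was chosen after seeing the data. Doublets (Scrublet in scanpy 1.11.5) were kept. Ratios and intervals were tested on simulated data. 3′ UMI counts are not scaled by length, so levels of different genes are not comparable. The tools were SciPy 1.17.1, pandas 2.3.3, NumPy 2.4.6 and Python 3.11.15.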

Additional observations from a re-analysis of the deposited data

Results flagged for a closer look

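Leydig cell markers, 6 genes of steroid-producing cells, differed between the libraries in their ratio of mitotic over non-cycling Sertoli cells. The median log2 ratio was 0.22 in wild type versus -1.15 in the library labelled *Ddx5* knockout. There 4 of the 6 were at least 2-fold lower, against 0.0999% of all genes, and the difference between the libraries was not tested. Without the cells with germ cell markers the wild-type median was 0.27. *Cyp17a1* had 840 UMIs in non-cycling cells of that library, 802 of them in 5 cells, and 108 UMIs in its mitotic cells. In wild type it had 157 and 284 UMIs. *Fabp3* was spread over 749 of 881 non-cycling cells of the library labelled *Ddx5* knockout. It was at 125 CPM in mitotic and 328 CPM in non-cycling cells there, and at 192 and 356 CPM in wild type.

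Outside the cells analysed, 13 barcodes of wild type versus 4 of the library labelled *Ddx5* knockout met the conditions on *Amh*, the Sertoli markers and the mitotic sum but failed the limits of 2000 genes or 10% mitochondrial UMIs.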

How the results depend on the processing

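No paired analysis was possible because the barcodes carry no replicate number and no test was run. Of the counts, shares and medians of the main results, 238 stayed within 1.5 times the count, or within the interval of the share or median, under an alternative, and 42 did not. Sertoli genes outside the rule had at most 1 gene past 2-fold under any of 12 alternatives. Mitotic genes outside the rule kept a median log2 ratio between 2.31 and 2.72 under the alternatives tried for them. Those did not include other amounts of added CPM. In wild type and the library labelled *Ddx5* knockout, a limit of 3 UMIs gave mitotic shares of 35.4% and 40.3%, a limit of 8 gave 25.1% and 29.2%, and thinning before the rule 18.9% and 21.2%. Median UMIs per mitotic cell were 18741 and 20699.5 at a limit of 3, 19714 in wild type at 8, 18672.5 and 20420 without doublets, 18580.5 and 20492 without cells rich in markers of other types, and 5000 in each by construction with thinning before the rule. With thinning before the rule, replication genes past 2-fold were 0 higher and 6 lower in wild type, and 0 higher and 10 lower in the other library, where a limit of 3 gave 6 higher and 1 lower, and 1 Sertoli gene was higher. Genes higher in mitotic cells numbered 617 and 387 with 1 CPM added and 106 and 117 with 50 CPM. Lower genes numbered 32 and 92 with 1 CPM, 2 and 3 with 50 CPM, 21 and 33 with thinning before the rule, and for the library labelled *Ddx5* knockout also 6 (limit of 3) and 27 (without doublets). Between the libraries 41 genes were higher with 1 CPM added. Lower genes there numbered 360 with 1 CPM, 1 with 50 CPM, 10 at 5% mitochondrial UMIs, 3 without cells rich in other markers, 9 with thinning before the rule, 13 with thinning after it and 4 without cells with germ cell markers. The cause was not tested except where the alternative removes cells or UMIs by construction.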

Other observations

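Of the macrophage markers, *C1qa*, a complement subunit, had 110 UMIs in wild-type mitotic cells, 107 of them in 1 cell, and 8 UMIs in 3 cells of the library labelled *Ddx5* knockout. In non-cycling cells, 149 of 150 UMIs of wild type and 87 of 89 of the other library were in 1 cell each. *Fcer1g*, an Fc receptor subunit, was spread more widely, with 193 UMIs in 4.75% of wild-type mitotic cells and 21 UMIs in 1.46% of those of the library labelled *Ddx5* knockout, 0.134-fold by CPM, and 0.230-fold without the wild-type cells with germ cell markers.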
